A study of Mus musculus with 3 samples.

Results

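The genes described are 10 heat shock chaperone genes in non-parenchymal liver cells of control mice and mice with a breast tumour outside the liver. They were Hspa1a, Hspa1b, Hsph1, Dnajb1, Hsp90aa1, Hspd1, Hspe1, Hspb1, Hspa8 and Bag3, 10 of the 31053 genes in the count matrices, found there by symbol. They were picked because Hspa1a and Hspa1b were among the genes with the largest increases over the control in several cell classes of these same libraries. The ratios between libraries given below are therefore descriptions of the values that chose the genes, and no test was made on them.

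Single-cell 3′ RNA-seq was made of dissociated liver cells of female Balb\c mice, the strain in which the mammary carcinoma line 4T1 arose. The control library came from mice given PBS, with an age of 8 weeks in the labels and no day of collection. The other libraries came from mice that received 4T1 cells orthotopically, with an age of 8 weeks and collection on day 4, or an age of 11 weeks and collection on day 21. Each group is 1 library, the number of mice in it is not given, and differences between mice or between preparations cannot be told apart from differences between groups. All intervals below are 95% intervals for counting error only.

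Heat shock chaperones hold unfolded proteins, refold them or pass them on for degradation. HSP70 proteins bind short hydrophobic stretches in cycles of ATP use that J-domain proteins start and nucleotide exchange factors end, HSP90 finishes the folding of kinases and receptors, and the mitochondrial chaperonin folds imported proteins. Most of these genes are driven by heat shock factor 1, which binds inverted repeats of a short element in their promoters. The same genes are also known to be switched on when tissue is warmed and digested to free its cells.

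The promoter sequences show how far the members share that element. RefSeq start sites on GRCm38.p6 were found for 8 of the 10 genes, and the 250 bases before each were searched on both strands for GAANNTTC and TTCNNGAA, which are 2 facing blocks of the heat shock element. A match was present in 12.8% of 32851 promoter windows of that length and in 7 of the 11 windows of these genes, which belonged to 6 of the 8: Hspa1a, Hspa1b, Hsph1, Hspd1, Hspe1 and Hspb1. Hspd1 has 2 start sites, and the window of the other held no match. A pair followed by 1 more block, facing the other way at the same spacing, was present in 0.466% of the windows, among them that of Hspe1 and 1 of Hspd1. These letters were not in the windows of Dnajb1 and Bag3. The search was for exact letters within 250 bases, so it cannot show that a gene lacks the element. Hspa1a and Hspa1b, which encode the inducible HSP70, lie on the minus strand of chromosome 17 with 9951 bases between them. Their windows are shown because they differ at only 3 of 250 positions, C44T, T47C and T249G, counted from 1 at the 5′ end with the base of Hspa1a first. Capitals mark the 2-block match, which begins 104 bases before the start in both, in the windows chr17:34972157-34972406 and chr17:34959239-34959488.
Hspa1a: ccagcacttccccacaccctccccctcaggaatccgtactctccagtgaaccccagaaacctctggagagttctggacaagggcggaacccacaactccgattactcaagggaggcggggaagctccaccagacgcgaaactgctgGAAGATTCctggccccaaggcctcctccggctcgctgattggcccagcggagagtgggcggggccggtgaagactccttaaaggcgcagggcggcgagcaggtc
Hspa1b: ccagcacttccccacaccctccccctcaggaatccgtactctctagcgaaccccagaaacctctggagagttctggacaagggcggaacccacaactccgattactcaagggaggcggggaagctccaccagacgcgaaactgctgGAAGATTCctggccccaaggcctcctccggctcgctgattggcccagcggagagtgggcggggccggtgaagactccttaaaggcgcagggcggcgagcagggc
Hspb1 encodes HSP27, a small heat shock protein that holds unfolding proteins without ATP. Its window on the plus strand, chr5:135887669-135887918, is shown because it held 2 matches, and its levels followed another course than those of the HSP70 copies.
Hspb1: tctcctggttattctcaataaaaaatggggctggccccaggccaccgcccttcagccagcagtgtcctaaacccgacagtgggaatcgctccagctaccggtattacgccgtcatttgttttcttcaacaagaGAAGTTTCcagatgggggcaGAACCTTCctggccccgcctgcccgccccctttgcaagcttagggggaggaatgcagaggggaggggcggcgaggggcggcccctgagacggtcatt
Hspe1 and Hspd1 encode the small and the large subunit of the mitochondrial chaperonin, stand head to head on chromosome 1 with annotated genes overlapping by 112 bases, and share 1 run of 3 overlapping matches. That run is shown from Hspe1 on the plus strand, chr1:55088053-55088082. The match of Hsph1, an HSP110 that exchanges the nucleotide of HSP70, is shown from the minus strand, chr5:149636351-149636380.
Hspe1: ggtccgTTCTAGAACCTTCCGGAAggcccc
Hsph1: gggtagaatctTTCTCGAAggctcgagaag

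The libraries held 6489, 9175 and 12338 barcodes and 27191082, 34833820 and 51913215 UMIs for control, day 4 and day 21. After filters, 4694, 5414 and 9945 cells were kept, with medians of 4179, 4439.5 and 3013 UMIs. Of the kept barcodes, 27, 31 and 44 occurred in more than 1 library. Clustering without the chaperone genes gave 7 classes with at least 50 cells in each library, named from marker genes. The label of non-parenchymal cells fitted these classes, and the hepatocyte-like class held 8, 2 and 3 cells. An unnamed cluster, 16, was led by hepatocyte genes and held 69, 193 and 176 cells. The clusters that made up a class were not always the same in each library. Of the endothelial-like cells, 954 of 1050 at day 21 were in cluster 6, which held 3 control and 8 day 4 cells, and 216 of 287 stellate-like cells at day 21 were in cluster 22, with 1 cell from each of the other libraries. Neutrophil-like cells were mostly in cluster 13 in control and at day 4 and in clusters 3 and 20 at day 21.

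The chaperone genes did not move as 1 group. Over the 7 classes, 50 of the 70 gene and class pairs had at least 20 UMIs in the control and day 4 libraries together, and 14 of these were at least 2-fold higher at day 4, beside 2.58% of all genes tested in these classes. No pair was at least 2-fold lower, beside 2.48%. Between day 21 and control, 14 of 58 pairs were 2-fold higher, beside 8.08%, and 1 was 2-fold lower, beside 9.58%. Between day 21 and day 4, 9 of 56 were 2-fold higher, beside 6.39%, and 10 were 2-fold lower, beside 8.0%. Of those 10, 5 lay in neutrophil-like cells, where 41.7% of all genes were 2-fold lower. The count was 4 with doublets kept, over 7 classes. With a stricter cell filter it was 3, over 5 classes without the neutrophil-like and conventional dendritic-like ones. Classes from own markers also gave 3, over 6 classes without the conventional dendritic-like one. The genes were chosen on these ratios, so the shares are given as background and nothing is read from them. The 3 comparisons share libraries.

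Of the 14 pairs higher at day 4, 12 lay in endothelial-like, Kupffer-like and stellate-like cells. In endothelial-like cells 4 of 10 genes were 2-fold higher at day 4 than in control, beside 1.5% of all genes in that class, and 0 were lower, beside 1.5%. Against control at day 21, 3 were higher, beside 7.72%, and 0 lower, beside 4.64%, and against day 4 there were 2 higher, beside 5.8%, and 0 lower, beside 3.76%. In Kupffer-like cells 3 of 9 measured genes were higher at day 4, beside 1.91%, and 0 lower, beside 2.33%. There, 2 were higher at day 21 than in control, beside 6.19%, and 0 lower, beside 5.14%. Against day 4 there were 2 higher, beside 4.85%, and 1 lower, beside 4.26%. Stellate-like cells had 5 of 10 genes higher at day 4, beside 1.24%, and 0 lower, beside 1.91%, then 2 higher at day 21 than in control, beside 6.83%, and 0 lower, beside 4.91%. From day 4 to day 21 they had 1 gene higher, beside 6.19%, and 3 lower, beside 4.07%. The genes called lower there were Hsph1, Hspb1 and Hspa8.

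**Figure D1:**
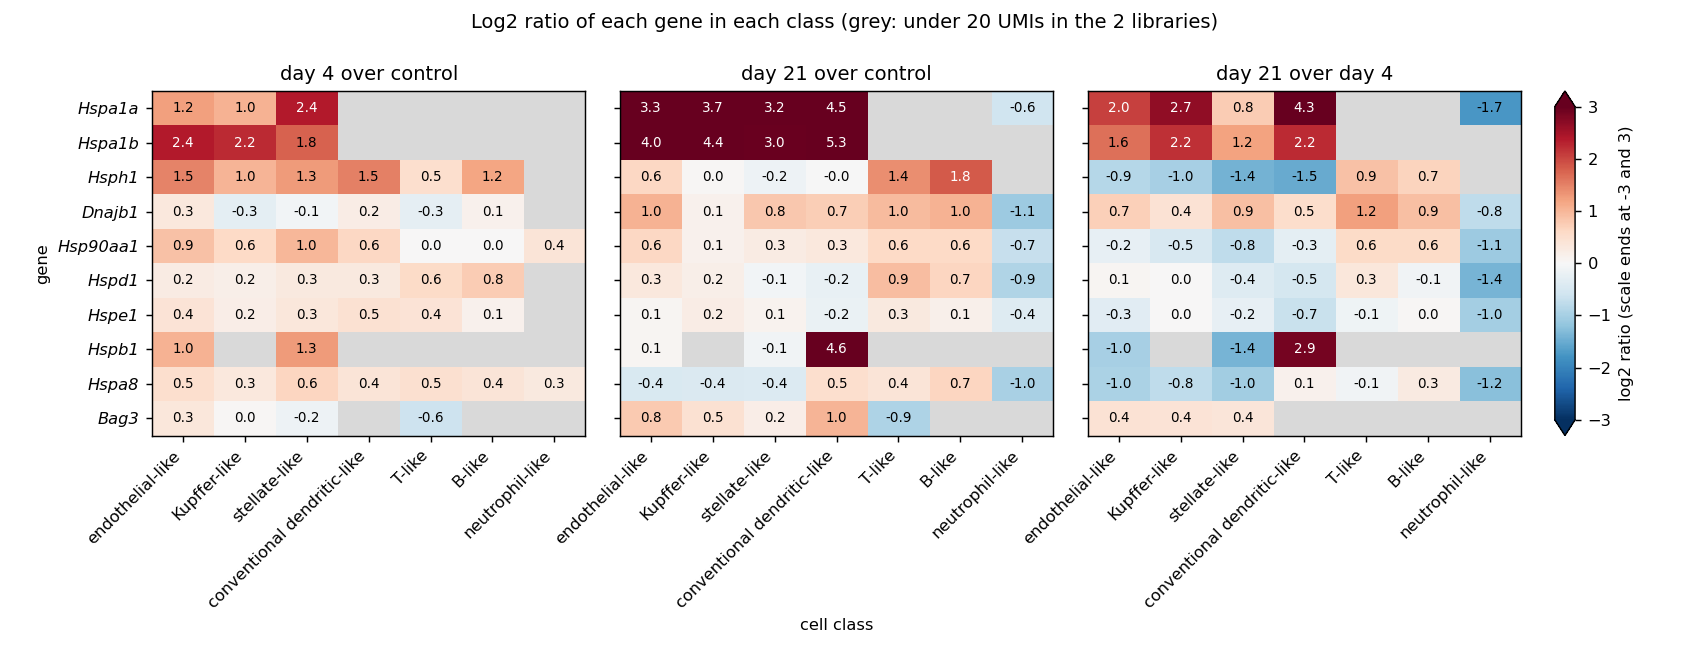
Log2 ratio of each of the 10 genes (rows) in each of the 7 cell classes (columns) for the 3 comparisons of libraries; grey cells had under 20 UMIs in the libraries compared. Hspa1a and Hspa1b are red in endothelial-like, Kupffer-like and stellate-like cells in all 3 panels, whereas Hsph1 and Hspa8 turn blue there from day 4 to day 21; the Hspb1 values of conventional dendritic-like cells at day 21 come from 1 cell.

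The inducible HSP70 genes were low in control cells and higher at each later time in the resident classes. Hspa1a and Hspa1b are given as a sum, because 49.3% of the windows of 90 bases in the Hspa1a transcript are found unchanged in that of Hspa1b. Within the last 500 bases, where 3′ reads mostly fall, no such window was shared. In endothelial-like cells the sum was 19.4 counts per 1000000 UMIs of the class (CPM; interval 16.6 to 22.7) in control, 64.9 (59.7 to 70.4) at day 4 and 233 (216 to 252) at day 21. The 3 intervals did not overlap. These levels gave log2 ratios of 1.74 (1.49 to 2.00) for day 4 over control and 3.58 (3.34 to 3.84) for day 21 over control, a difference of 11.97-fold.

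In Kupffer-like cells, macrophages that live in the sinusoids, the sum was 15.2 CPM (11.5 to 19.8) in control, 46.1 (41.2 to 51.4) at day 4 and 247 (224 to 273) at day 21. From the summed counts, the step from day 4 to day 21 was larger here than in endothelial-like cells, with log2 ratios of 2.42 (2.21 to 2.64) and 1.85 (1.68 to 2.01). With each cell thinned to 1000 UMIs these ratios were nearly equal, at 1.82 and 1.75. In stellate-like cells, vitamin A-storing pericytes of the sinusoid, it was 15.1 CPM (11.5 to 19.5), 67.4 (59.5 to 76.0) and 129 (111 to 148). On the log2 scale, though not in CPM, most of the difference was reached by day 4. The log2 ratio there was 2.15 (1.75 to 2.59) for day 4 over control and 0.93 (0.66 to 1.20) for day 21 over day 4.

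Conventional dendritic-like and lymphoid cells had almost no HSP70 transcript of this kind before day 21. In conventional dendritic-like cells the sum was 1 UMI (1.84 CPM) in control, 8 UMIs (9.59 CPM) at day 4 and 95 UMIs (96.2 CPM, 77.8 to 118) at day 21. T-like cells held 1, 1 and 19 UMIs, or 0.66, 0.921 and 30.2 CPM. B-like cells held 1, 2 and 17 UMIs, or 1.004, 3.01 and 24.6 CPM. In all 3 classes only the day 21 library stood clear of the others, and with 1 UMI in control the ratio of day 21 to control was wide, with a log2 interval of 2.86 to 10.9 in T-like cells. In T-like cells 78.9% of the day 21 UMIs were in 4 cells.

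Neutrophil-like cells were the class that did not share this course. They held 0 UMIs in 54 control cells, which allows up to 39.7 CPM at 3 UMIs, 5 UMIs in 185 cells at day 4 (16.3 CPM, 5.28 to 38.0) and 35 UMIs in 2301 cells at day 21 (6.01 CPM, 4.19 to 8.36). No fold against control can be given, and the day 4 and day 21 intervals overlapped. In this class 41.7% of all genes tested were at least 2-fold lower at day 21 than at day 4, with a median log2 ratio of -0.80 over 7020 genes.

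**Figure D2:**
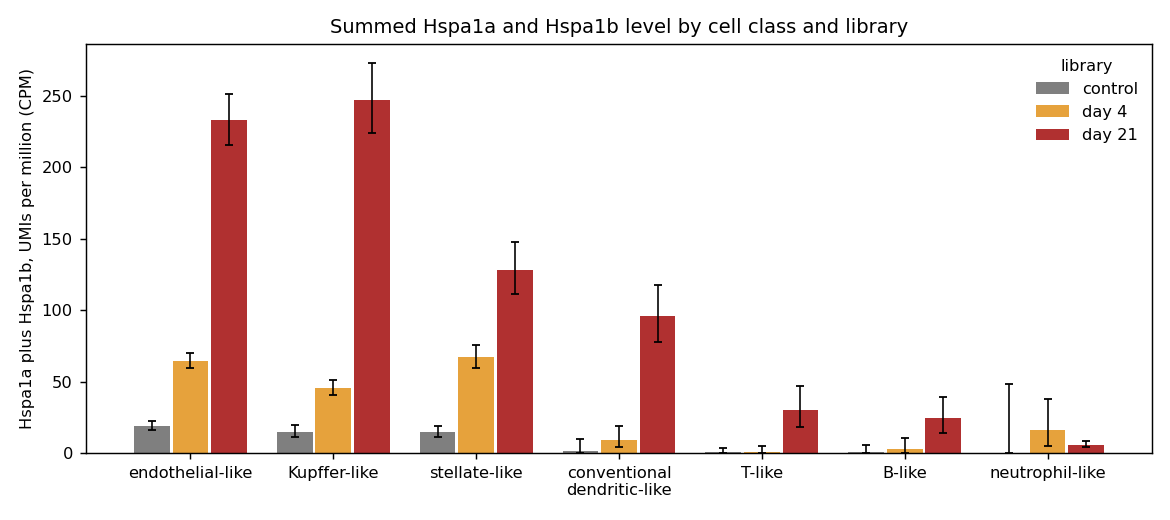
Summed level of Hspa1a and Hspa1b (CPM, linear axis from 0) in 7 cell classes in the control, day 4 and day 21 libraries; bars are the class sum of 1 library and error bars the exact 95% Poisson interval. Endothelial-like and Kupffer-like cells reach 233 and 247 CPM at day 21, and neutrophil-like cells are at 6.01 CPM.

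In the classes with at least 20 UMIs in the libraries compared, the median log2 ratio of the sum was 1.74 over 3 classes for day 4 over control, 3.80 over 6 for day 21 over control and 2.14 over 6 for day 21 over day 4. The ratio was at least 2-fold higher in 3, 5 and 4 of these classes. With every class counted, the medians over 7 classes were 1.59, 4.01 and 2.42, each the value of the Kupffer-like class. The ratio of neutrophil-like cells to control rests on a count of 0 and lay below these medians with the 0.5 counts added or at the floor of 3 UMIs.

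The level at day 21 differed between the endothelial-like clusters. In cluster 6, the endothelial-like cells found almost only at day 21, the sum was 251 CPM (232 to 271). The 48 day 21 cells that fell into cluster 0, where most control and day 4 cells lay, had 74.4 CPM (35.7 to 137), beside 64.6 CPM (58.1 to 71.7) in the day 4 cells and 21.6 CPM (17.9 to 25.9) in the control cells of that cluster. Day 4 and day 21 could not be told apart there, whereas both lay above control. Cluster 19, led by the lymphatic and sinusoidal marker Lyve1, gave 11.5, 54.7 and 81.2 CPM from 98, 168 and 24 cells, again with overlapping intervals at the later times.

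In stellate-like cells the clusters could not be told apart so clearly. Cluster 22 held 137 CPM (118 to 158) at day 21, and the interval of the 20 day 21 cells in cluster 10, 89.9 CPM (41.1 to 171), spanned both that value and the 69.6 CPM (61.4 to 78.5) of the day 4 cells there. Cluster 23, with 51 cells at day 21, held 14.3 CPM (0.361 to 79.4). The main Kupffer-like cluster, 2, held cells of each library: 318, 665 and 619 cells gave 16.1, 47.7 and 246 CPM, and the 3 intervals did not overlap. The second Kupffer-like cluster, 14, gave 6.31, 28.4 and 288 CPM. How far libraries shared a cluster depended on the resolution of the clustering. At resolution 2 most Kupffer-like cells lay in a cluster with 307, 596 and 34 cells or in one with 6, 61 and 580, and at resolution 0.5 a single stellate-like cluster held 396, 467 and 250.

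**Figure D3:**
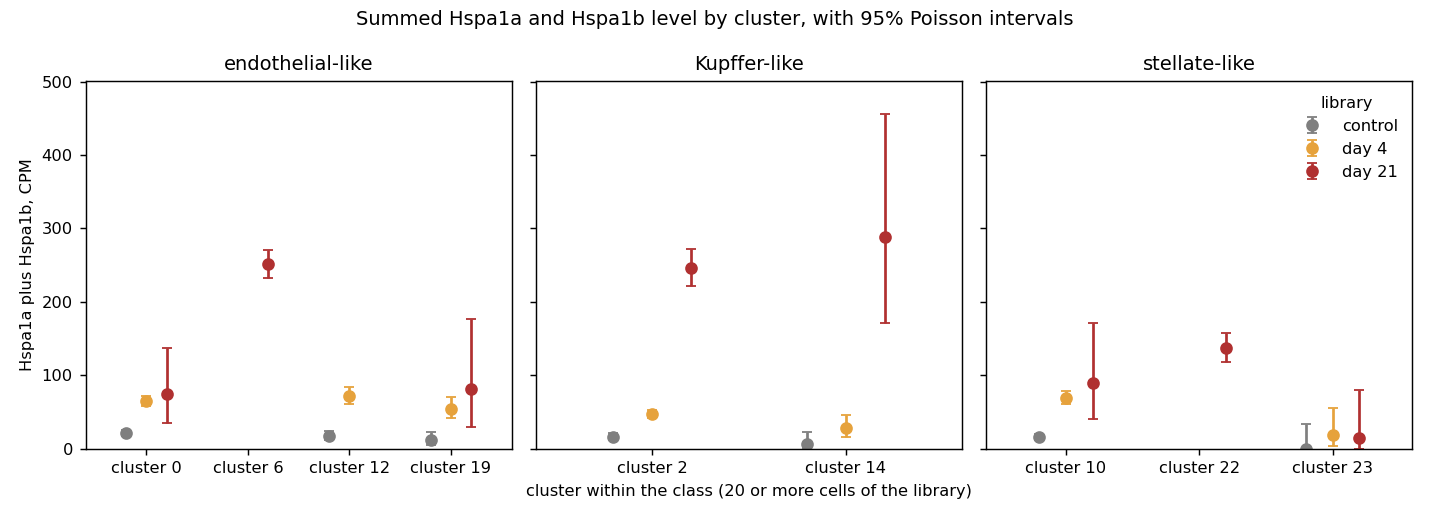
Summed level of Hspa1a and Hspa1b (CPM) in each cluster of the endothelial-like, Kupffer-like and stellate-like classes, by library; points are class sums of 1 library with 20 or more cells and bars are exact 95% Poisson intervals. The day 21 value stands far above day 4 in Kupffer-like clusters 2 and 14, and overlaps it in clusters 0, 19 and 10.

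The share of cells with a transcript followed the same order. After each cell was thinned to 1000 UMIs, 2.33% of endothelial-like cells held an Hspa1a or Hspa1b UMI in control, 6.66% at day 4 and 13.5% at day 21. In Kupffer-like cells the shares were 2.29, 4.45 and 11.8%, and in stellate-like cells 0.730, 5.17 and 7.87%. Before thinning, the endothelial-like shares were 10.52, 24.9 and 22.4%, with median depths of 5781, 5274 and 2668.5 UMIs. No class here should lack these genes, so the class with the lowest sum at day 21, neutrophil-like cells, is given beside them. Neutrophil-like shares after thinning were 0, 2.37 and 0.643%, at medians of 1402.5, 1589 and 1909 UMIs. The sum in neutrophil-like cells at day 4, 16.3 CPM, was above the 0.921 CPM of T-like cells. A few cells carried many UMIs: 1 Kupffer-like cell at day 4 held 40 of 319, and the highest endothelial-like cell at day 21 held 17 of 663.

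The HSP70 copies were not equally abundant in every library. Hspa1a made up 65.9% (58.1 to 73.1) of the sum in control endothelial-like cells, 46.8% (42.7 to 51.0) at day 4 and 53.8% (49.97 to 57.7) at day 21. In Kupffer-like cells its shares were 65.5, 45.1 and 53.1%. In stellate-like cells the shares were 55.9% (42.4 to 68.8), 66.0% (59.99 to 71.7) and 59.0% (51.8 to 65.9), with overlapping intervals. Hspa1b was thus the copy with the larger ratio at day 4 in endothelial-like cells, a log2 ratio of 2.37 beside 1.24 for Hspa1a.

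In endothelial-like cells the copies were found together more often at day 21 than at day 4. Among thinned endothelial-like cells at day 4, Hspa1b was present in 3.85% (0.469 to 13.2) of the 52 cells with Hspa1a and in 3.62% of those without it. At day 21 it was present in 27.1% (17.99 to 37.8) of 85 cells with Hspa1a and in 5.59% (4.199 to 7.26) of those without. Kupffer-like cells at day 21 gave 36.6% (22.1 to 53.1) against 4.84% (3.16 to 7.07). At day 4 they gave 9.52% (1.17 to 30.4) of 21 cells against 2.04%, so that the intervals of both times overlapped in that class. Hsph1 and Hsp90aa1 were also more frequent in day 21 endothelial-like cells with either copy, 7.30% against 2.28% for Hsph1 and 28.5% against 17.3% for Hsp90aa1. For Dnajb1, Hspd1, Hspe1, Hspb1, Hspa8 and Bag3 the intervals of the shares overlapped, and in Kupffer-like cells at day 21 so did those of Hsph1 and Hsp90aa1. Cells of 1 library are not replicates of a condition, and these shares describe the libraries.

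**Figure D4:**
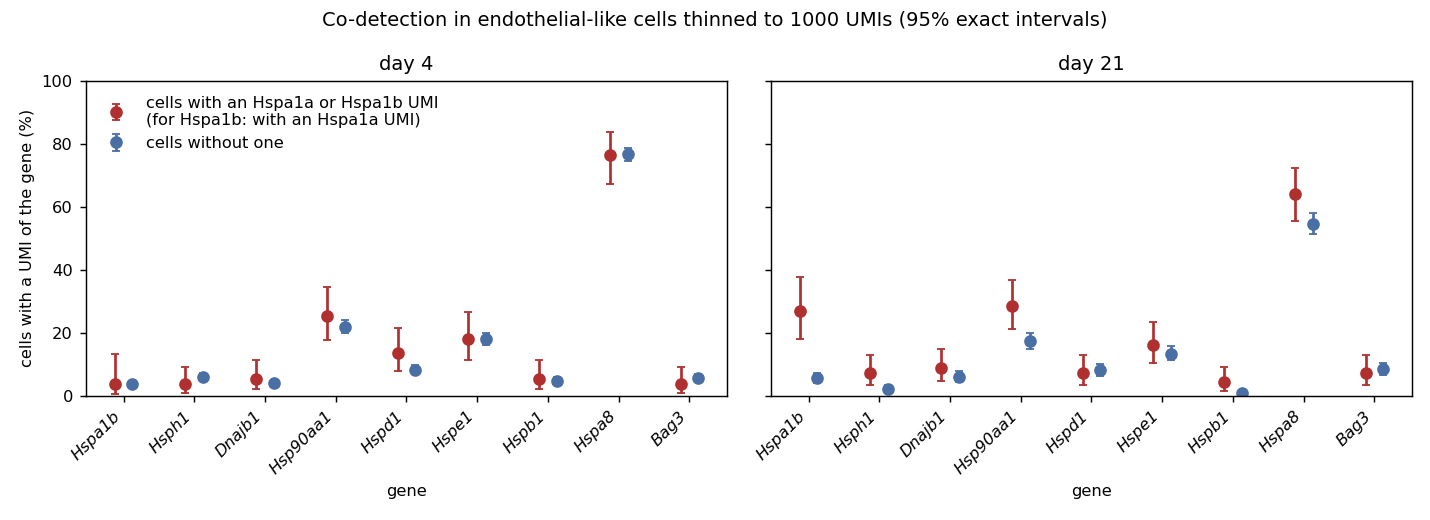
Share of thinned endothelial-like cells (per cent) with a UMI of each chaperone gene, among cells with and without an Hspa1a or Hspa1b UMI, at day 4 (left) and day 21 (right); for Hspa1b the cells were split by Hspa1a alone, and bars are exact 95% intervals. At day 21 Hspa1b stands at 27.1% against 5.59%, while at day 4 the points lie together.

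Hspa8 encodes the constitutive HSP70, HSC70, which serves cells at rest. Its values had another order than those of the inducible copies. In endothelial-like cells it stood at 1127 CPM in control, 1604 at day 4 and 825 at day 21, so that day 21 was the lowest library. The log2 ratio was 0.51 (0.47 to 0.55) for day 4 over control and -0.96 (-1.02 to -0.90) for day 21 over day 4. Kupffer-like cells (1333, 1671 and 993.5 CPM) and stellate-like cells (1022, 1598 and 774 CPM) had the same order. In B-like cells it was 846, 1107 and 1333 CPM, highest at day 21, and in conventional dendritic-like cells 1908, 2479 and 2707 CPM.

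Hsph1, the HSP110 partner of HSP70, was highest at day 4 in the resident classes. It was at 22.3, 62.2 and 34.1 CPM in endothelial-like cells, 46.8, 95.8 and 47.4 in Kupffer-like cells and 34.5, 83.7 and 30.9 in stellate-like cells. At day 21 the values of the last 2 classes lay near those of control, with log2 ratios to control of 0.02 (-0.39 to 0.41) and -0.15 (-0.67 to 0.32). Conventional dendritic-like cells followed the same course, at 33.1, 95.9 and 33.4 CPM. Lymphoid cells did not: T-like cells had 27.7, 39.6 and 73.2 CPM and B-like cells 15.1, 34.6 and 55.1, with the highest value at day 21. The log2 ratio of day 21 to control was 1.40 (0.76 to 2.04) in T-like and 1.84 (0.98 to 2.84) in B-like cells, from 42 and 46 and from 15 and 38 UMIs.

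Dnajb1, the J-domain protein that delivers clients to inducible HSP70, differed little at day 4 and was higher at day 21. In endothelial-like cells it was at 34.0, 42.4 and 69.7 CPM, a log2 ratio of 1.03 (0.76 to 1.305) for day 21 over control. Stellate-like cells had 35.8, 33.6 and 63.0 CPM and B-like cells 37.1, 40.7 and 76.8. In Kupffer-like cells, where the HSP70 sum was at 247 CPM at day 21, it was at 40.4, 32.9 and 44.4 CPM, and the interval of its ratio to control at day 21 included 0. The median over 7 classes was 0.82 for day 21 over control.

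Bag3, a nucleotide exchange factor that directs HSP70 clients to autophagy, was at 48.0, 60.7 and 82.3 CPM in endothelial-like cells. The log2 ratio of day 21 to control was 0.78 (0.54 to 1.01). It was at 19.9, 20.7 and 27.4 CPM in Kupffer-like and at 46.3, 41.5 and 53.4 in stellate-like cells, where the intervals of both ratios to control included 0. Endothelial-like and stellate-like cells held the highest control levels of this gene, and their intervals overlapped.

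Hsp90aa1 encodes the inducible HSP90 alpha. It was at 146, 267 and 226 CPM in endothelial-like cells, 327, 497 and 357 in Kupffer-like cells and 242, 485 and 288 in stellate-like cells. Day 4 was the highest library in each, and the log2 ratio of day 4 to control was 0.87 (0.77 to 0.97), 0.61 (0.51 to 0.70) and 1.003 (0.89 to 1.12). T-like and B-like cells had nearly equal values in control and at day 4, 246 and 249 CPM and 322 and 325 CPM, and higher ones at day 21, 372 and 484 CPM.

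The mitochondrial chaperonin genes had no 2-fold difference from control in the classes where they had 20 UMIs. Under other settings some lymphoid and neutrophil-like values passed it. Hspd1 of B-like cells reached a log2 ratio of 2.19 at day 21 with no cell filter and 1.11 at day 4 with a stricter one. Hspd1 of T-like cells reached 1.21 at day 21 with the stricter filter, and Hspe1 of B-like cells 1.11 at day 21 with own markers. In neutrophil-like cells at day 21, 5 counts added put Hspd1 at -2.81 and Hspe1 at -2.31, and doublets kept put Hspe1 at 1.41. Hspd1 was at 75.3, 89.4 and 93.6 CPM in endothelial-like cells and at 126, 142 and 142 in Kupffer-like cells. In T-like cells it was at 78.5, 118 and 149.5 CPM, a log2 ratio of 0.93 (0.52 to 1.33) for day 21 over control. Hspe1 was at 154, 204 and 161 CPM in endothelial-like cells and 207, 240 and 241 in Kupffer-like cells. Of the sequences shown, theirs is the one with 3 overlapping matches.

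Among the 7 classes, Hspb1 had over 20 UMIs in control only in endothelial-like and stellate-like cells. It was at 19.7, 40.8 and 20.4 CPM in the first and at 9.20, 22.6 and 8.36 in the second, highest at day 4 and near the control value at day 21. The log2 ratio of day 4 to control was 1.05 (0.78 to 1.32) and 1.29 (0.73 to 1.90). Kupffer-like cells held 7, 11 and 2 UMIs and neutrophil-like cells none. Outside the classes, the cluster led by hepatocyte genes was at 13.4, 15.9 and 11.0 CPM and cluster 1, with endothelial markers and few UMIs per cell, at 13.2, 33.9 and 0 CPM. In conventional dendritic-like cells the 21 UMIs at day 21 were all in 1 cell, and without it that library held 0.

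**Figure D5:**
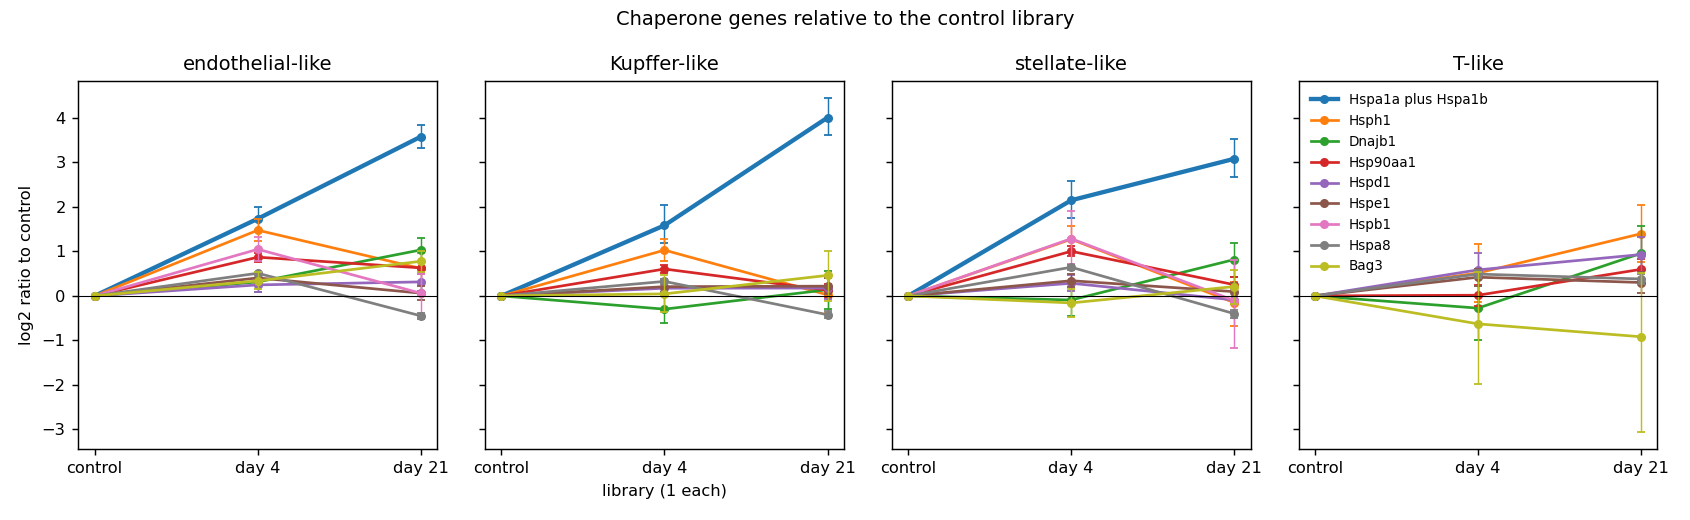
Log2 ratio to the control library for the HSP70 sum and the other 8 genes in endothelial-like, Kupffer-like, stellate-like and T-like cells at day 4 and day 21, with 95% counting intervals; genes with under 20 UMIs in a comparison are left out. The HSP70 sum climbs to 3.58, 4.01 and 3.08 at day 21 in the first 3 classes while Hsph1, Hsp90aa1 and Hspa8 peak at day 4.

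Across the 21 combinations of class and library, with each class centred on its own mean, Dnajb1 was the member whose log2(CPM + 10) profile was most like that of the HSP70 sum (Pearson r 0.71), followed by Bag3 (0.52), Hsp90aa1 (0.45), Hspb1 (0.39), Hspd1 (0.29), Hsph1 (0.21), Hspe1 (0.15) and Hspa8 (-0.04). Among 11023 genes ranked, 8 outside the members came nearest: Calhm2 (0.96), Hes1 (0.93), Hhex (0.92), Ints6 (0.91), Gtf2e1 (0.90), mt-Co1 (0.89), Gmppa (0.89) and Nfkb1 (0.89). Hes1 is a Notch target and Nfkb1 a subunit of NF-kappa B. The 21 points share libraries, so r is a description of likeness only.

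Other chaperone families were counted from lists by role, with at least 20 UMIs per gene. Among chaperones of the endoplasmic reticulum, 15 of 15 were above control at day 4 in endothelial-like cells, with a median log2 ratio of 0.66 beside 0.03 over all genes there, and 3 passed 2-fold beside 1.5% of all genes. These were Sdf2l1 at 1.44, Creld2 at 1.27 and the secreted factor Manf at 1.05. Hspa5, the HSP70 of that compartment, was at 636 and 1128 CPM. At day 21 the list was lower than at day 4, with a median of -0.60 and 5 of 15 genes 2-fold lower beside 3.76%. In stellate-like cells 15 of 15 and in Kupffer-like cells 14 of 15 were above control at day 4, with medians of 0.35 and 0.30.

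The medians of the cytosolic partners of HSP90 and of TRiC were smaller. In endothelial-like cells 11 of 12 were above control at day 4, with a median of 0.32 and none past 2-fold, and the constitutive Hsp90ab1 was at 921, 1381 and 1125 CPM. Of the subunits of the cytosolic chaperonin TRiC, 7 of 7 measured were above control at day 4, with a median of 0.23. At day 21 over control the medians of these lists were 0.02 and -0.04. The HSP90 co-chaperone Fkbp5, a glucocorticoid target, was lower at day 21 in Kupffer-like cells, at 171 CPM in control, 123 at day 4 and 45.6 at day 21.

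For other cytosolic HSP70 genes the median in endothelial-like cells was 0.25 at day 4 and 0.22 at day 21 over control, beside 0.03 and 0.10 over all genes, and none of 7 passed 2-fold. The medians of the remaining families were for J-domain proteins 0.03 and 0.02, for exchange factors 0.02 and -0.09, for small heat shock proteins -0.16 and 0.12, and for mitochondrial chaperones and proteases -0.09 and -0.06. Dnaja4 was at 39.4, 32.7 and 15.1 CPM and Bag5 at 138 CPM in control and 65.4 at day 21. Hsf1, the heat shock factor itself, was at 30.4, 28.5 and 31.7 CPM. Among other stress genes, polyubiquitin Ubb was 2-fold lower at day 21, at 1051 and 325 CPM, and the metallothionein Mt1 was at 1163, 581 and 1162 CPM.

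Immediate early genes, which are also known to respond to cell dissociation, differed between the libraries and between the classes. In endothelial-like cells the 18 immediate early genes without chaperones summed to 4696, 2848 and 9084 CPM. At day 4, 15 of 18 were below control with a median of -0.50, and at day 21 18 of 18 were above it with a median of 1.19 and 10 past 2-fold, beside 7.72% of all genes. In Kupffer-like cells the sums were 6687, 4645 and 5591 CPM. The median at day 21 was 0.03, and the HSP70 sum was at 247 CPM. Single genes there went both ways at day 21 over control. Atf3, Nr4a1 and Ier3 were at 1.38, 1.20 and 1.15, and Btg2 was at -1.31. In stellate-like cells the sums were 4782, 2846 and 7680 CPM, above control at day 21 as in endothelial-like cells. In T-like cells they were 4394, 3164 and 4145 CPM and in B-like cells 6060, 3886 and 4395, below control at both times. Conventional dendritic-like cells gave 3626, 3514 and 5605 CPM, and neutrophil-like cells 13082, 9815 and 4711. The part of these genes, or of what moved them, in the HSP70 values at day 4 and day 21 was not tested.

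Other measures moved between the libraries too. The filter on genes and mitochondrial reads removed 27.05, 39.96 and 13.5% of barcodes. In kept Kupffer-like cells the mitochondrial share of UMIs was 9.14, 9.29 and 11.7%, and median depth was 7770, 7451 and 2026.5 UMIs. Among endothelial-like cells with 5 to 10% mitochondrial UMIs, the HSP70 sum was 17.7, 64.1 and 280 CPM, and with 10 to 20% it was 21.0, 59.9 and 183. The order of these 3 libraries was the same in both ranges, as it was in Kupffer-like cells, at 17.9, 51.1 and 254 CPM and at 9.60, 33.6 and 243. In stellate-like cells it was not: the lower range gave 14.8, 69.2 and 136 CPM, and the upper gave 9.12, 50.4 and 22.9 (6.23 to 58.5 at day 21, from 4 UMIs in 75 cells). The transcript of albumin, which comes from hepatocytes, was at 525, 457 and 187 CPM in the endothelial-like class and summed haemoglobin at 63.7, 170 and 149.5 CPM. The part of filter, depth and these transcripts in the HSP70 values was not tested.

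Classes with too few cells for a comparison were also measured at day 21. Monocyte/macrophage-like cells, 769 at day 21, held 922 Hspa1a and Hspa1b UMIs, 181 CPM (170 to 193). That was 26.2% of all Hspa1a and Hspa1b UMIs in the kept cells of that library. Neutrophil precursor-like cells held 906 UMIs at 56.3 CPM (52.65 to 60.04), above the 6.01 CPM of neutrophil-like cells in the same library. Their share of the Hspa1a and Hspa1b UMIs in kept cells was 25.8%. Neutrophil precursor-like cells also had 1211 CPM of Hsp90aa1 and 518 CPM of Hspd1, beside 52.9 and 10.48 CPM in neutrophil-like cells. Natural killer and T cell genes led the unnamed clusters 9 (Xcl1, Cxcr6) and 21 (Cma1, Gzma, Prf1). Cluster 9 held 0, 2 and 35 HSP70 UMIs, at least 26.9-fold higher at day 21 than in control against a floor of 3 UMIs per library, and cluster 21 held 0, 0 and 19, at least 9.05-fold higher.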

How the data were processed

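Raw UMI counts per gene and barcode were used as deposited. Per the file headers the matrices were written by Cell Ranger 3.1.0, and per the submitters' processing notes the build was mm10. Other steps are not given in the sources used here. Members, lists and rules were chosen with earlier results of these data known.

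A barcode was kept if it held 200 genes or more and no more than 20% of its UMIs were mitochondrial. Scrublet, in Scanpy 1.11.5, marked 40, 95 and 725 doublets, which were removed. Counts were scaled to 10000 per cell and logged. From 2000 variable genes without the chaperone and list genes, 30 principal components and 15 neighbours, Leiden clustering (leidenalg 0.10.2) at resolution 1 gave 35 clusters. A name needed at least 3 markers found in 10% of cells at 2-fold the level elsewhere, and more than any other class. It was withheld if another class had as many or more markers among the 10 leading genes. A cluster under 1/3 of the median library depth with no marker there also went unnamed. Those left unnamed included cluster 1, with endothelial markers (842, 642 and 215 cells), and cluster 4, with neutrophil markers (2, 9 and 1104 cells). Names were rebuilt here, and the marker lists are the ones used for earlier results.

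Counts were summed per class and library. CPM is counts per 1000000 UMIs of that sum, with exact Poisson intervals. Log2 ratios add 0.5 counts and carry an exact conditional binomial interval, and shares carry Clopper-Pearson intervals. A gene counted as measured if the libraries compared held 20 UMIs of it in all, and 2-fold was the threshold of size. Where a sum was 0, the floor was 3 UMIs per library and class. With 1 library per group no test between groups was made. Named from the lists were genes at least 2-fold different with 50 or more UMIs in endothelial-like or Kupffer-like cells, at most 3 per list and direction, examples of level, and the 8 genes nearest in profile. The ratio step was checked on simulated counts. Positions came from GENCODE M21 (GRCm38) and promoters from RefSeq (GRCm38.p6). UMI totals were as given in the report, and 13 alternatives were tried, with 1 added after the data were seen. Python 3.11.15, NumPy 2.4.6, SciPy 1.17.1 and pandas 2.3.3 were used.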

Additional observations from a re-analysis of the deposited data

Results flagged for a closer look

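Some genes differed in direction between classes in the same comparison, by at least 2-fold each way. None of these differences was tested. For day 21 over control, Dnajb1 had a log2 ratio of 1.04 in B-like cells and -1.09 in neutrophil-like cells, where the control held 4 UMIs. For day 21 over day 4, Hspa1a was at 4.33 in conventional dendritic-like cells and at -1.74 in neutrophil-like cells. Hspb1 in the same comparison was at 2.86 in conventional dendritic-like cells, from 21 UMIs of 1 cell, and at -1.39 in stellate-like cells.

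The barcodes left out, by the filters or as called doublets, carried HSP70 transcripts too. The called doublets among them numbered 40 in control, 95 at day 4 and 725 at day 21, so these pools were not alike. Summed Hspa1a and Hspa1b stood at 2.72 CPM in the left-out barcodes of the control library, 17.998 CPM at day 4 and 82.0 CPM at day 21, beside 13.6, 46.2 and 77.1 CPM in kept cells.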

How the results depend on the processing

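The median log2 ratio of summed Hspa1a and Hspa1b stayed above 0 in all 14 alternatives for each comparison, from 0.81 (5 counts added) to 1.90 for day 4 over control, from 3.05 to 4.03 for day 21 over control and from 1.75 to 2.55 for day 21 over day 4. The counts of gene and class pairs 2-fold higher moved more. For day 4 over control they ran from 8 (thinned to 1000 UMIs) to 14, in place of 14. For day 21 over control they ran from 7 (thinned) to 21 (no cell filter, and own markers), in place of 14. For day 21 over day 4 they ran from 6 (stricter cell filter) to 17 (no cell filter, and own markers), in place of 9. Resolution 0.5 gave 14 there and thinning to 1000 UMIs gave 7. Pairs 2-fold lower in that comparison ran from 3 to 10, in place of 10. The settings that gave 3 held fewer classes, 5 with the stricter filter and 6 with own markers. The cause was not tested.

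Some single ratios changed sign. In neutrophil-like cells, day 21 over day 4, Hspe1 was at 0.38 with doublets kept, and with classes from own markers Hsp90aa1 was at 0.48, Hspd1 at 1.20 and Hspe1 at 0.88. Own markers also put Hspb1 of stellate-like cells at 1.70. Hspb1 of conventional dendritic-like cells was at -0.88 (resolution 0.5) and -1.77 (resolution 2) for day 21 over day 4, and at -0.69 (resolution 2) over control. Without the cell with the most UMIs, an alternative added after the data were seen, it was at -1.82 and -0.88. After thinning, Hsph1 of B-like cells was at -0.12 for day 4 and Bag3 of conventional dendritic-like cells at -1.24 for day 21 over control. Stricter filters left 5 classes and own markers 6. Of 61 values past 2-fold, 47 stayed past it with cells thinned to 1000 UMIs. Under that setting 55 of all measured values moved outside their counting interval, more than under any other. The HSP70 sum of Kupffer-like cells for day 21 over control fell from 4.01 to 2.91. With median-ratio scaling, 50 of 61 values past 2-fold stayed past it and none changed sign. In neutrophil-like cells, where the median gene was at -0.97 for day 21 over control, that scaling moved Hspa8 for day 21 over day 4 from -1.25 to -0.27. No paired analysis was possible because each group holds 1 library. Counts limit T-like, B-like, dendritic-like and neutrophil-like cells most, where the HSP70 sum in control was 0 or 1 UMI. The dendritic-like class held 64 control cells with a median of 8037.5 UMIs.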
